A study of Rattus norvegicus with 13 samples.

Results

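The genes described here are 34 markers and effector genes of microglia, the resident macrophages of the brain, and of the macrophages at its borders. They were taken from a list of named genes, with the probe set of the highest mean signal for each gene, and 34 of the 34 were measured, each by 1 probe set, among 14506 genes with a probe set of their own. RNA came from the brain without the cerebellum of male Fischer F344 rats aged 15 months. The maternal fructose group (6 arrays) were offspring of mothers fed a high fructose diet from day 1 of gestation through lactation, and the maternal control group (7 arrays) were offspring of mothers fed a control diet over the same period. All offspring were weaned at day 20 and then ate standard chow. F344 is an inbred strain, and the labels do not give the litter of a sample or state that each came from its own animal, so the spread behind each p-value is that among these samples and may be partly technical. The comparison addresses gene expression in old brain after a high fructose diet in early life.

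Microglia depend on signalling through the receptor CSF1R and on the transcription factor PU.1, the product of Spi1, throughout life. They sense ATP breakdown products through P2Y receptors, read neuronal fractalkine through CX3CR1, and take up debris and synapses with the help of complement C1q and of TREM2, which signals through the adapter TYROBP. In old rodent brains they are known to take on a more reactive, primed state, in which cytokine and lysosomal genes are raised.

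Values are log2 signals of an Affymetrix gene array, so a difference of 1 is a factor of 2, and a signal has no order between genes because each probe set responds differently. Array medians over the 15633 probe sets tested ran from 8.03 to 8.05 in the fructose group and from 7.99 to 8.07 in the control group. Control replicates 1 and 2 had the narrowest distributions, with interquartile ranges of 2.19 and 2.15, while the 6 fructose arrays ran from 2.26 to 2.45. Control replicate 2 also stood apart by genes of cytotoxic lymphocytes, found after the values were seen. Nkg7, a granule gene of natural killer and cytotoxic T cells, was at 9.12 there and at 6.28 to 6.48 on the other 12 arrays. The granzyme genes Gzmb and Gzma were at 8.96 and 7.26, with at most 7.92 and 5.92 elsewhere, and the perforin gene Prf1 at 8.21, with at most 6.92 elsewhere. Control replicate 8 stood apart by genes of neurons in the hypothalamus and nearby nuclei, also picked after seeing their values. Avp, which encodes vasopressin, was at 8.93 there and at 7.29 to 7.62 elsewhere, and Sim1, a transcription factor of the hypothalamus, at 7.99 and at 6.47 to 6.82. The part of these signals in the results below was not tested.

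Averaged over the 34 microglial genes, the arrays that lay farthest from the others were controls. The mean deviation of the 34 genes from their own 13-array means lay between -0.03 and 0.01 on the 6 fructose arrays, against -0.14 to 0.21 on the 7 control arrays. Its SD was 0.011 among fructose arrays and 0.12 among control arrays. Control replicates 1 and 2 were lowest, at -0.14 and -0.12, control replicate 8 was highest at 0.21, and the other 4 controls lay between 0.01 and 0.07. Fructose brains thus sat in a narrow band inside the span of the controls. Control replicate 8 had the highest value of all 13 arrays for 23 of the 34 genes, against 11.4% of all probe sets, and lay above every fructose array for 29, against 17.4%. Control replicates 1 and 2 had the lowest value for 11 and 10 genes, against 10.9% and 18.3% of all probe sets, and lay below every fructose array for 21 and 14 genes, against 20.4% and 28.7%. Control replicate 2 was highest for 2 genes, against 9.94% of all probe sets. Of the 17 genes with the brighter probe sets, 16 were lowest on one of these 2 arrays and 16 were highest in control replicate 8. Of the 7395 probe sets in the same range of signal, 47.0% were lowest on one of the pair and 14.9% highest in control replicate 8. Among the 17 dimmer genes the counts were 5 and 7, where 13.1% and 9.64% of the 4906 probe sets in their range of signal did the same. The brighter and dimmer genes parted in control replicate 2, at -0.25 and 0.02, and were at -0.20 and -0.08 in control replicate 1 and at 0.24 and 0.17 in control replicate 8. Itgb2 was highest in control replicate 2, and so was Fcgr1a, at 7.12, though Fcgr1a was also at 7.12 in control replicate 8. Renewed quantile normalization left control replicates 1, 2 and 8 at -0.18, -0.13 and 0.21. In whole tissue, fewer microglia and less of these RNAs per cell cannot be told apart.

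**Figure D1:**
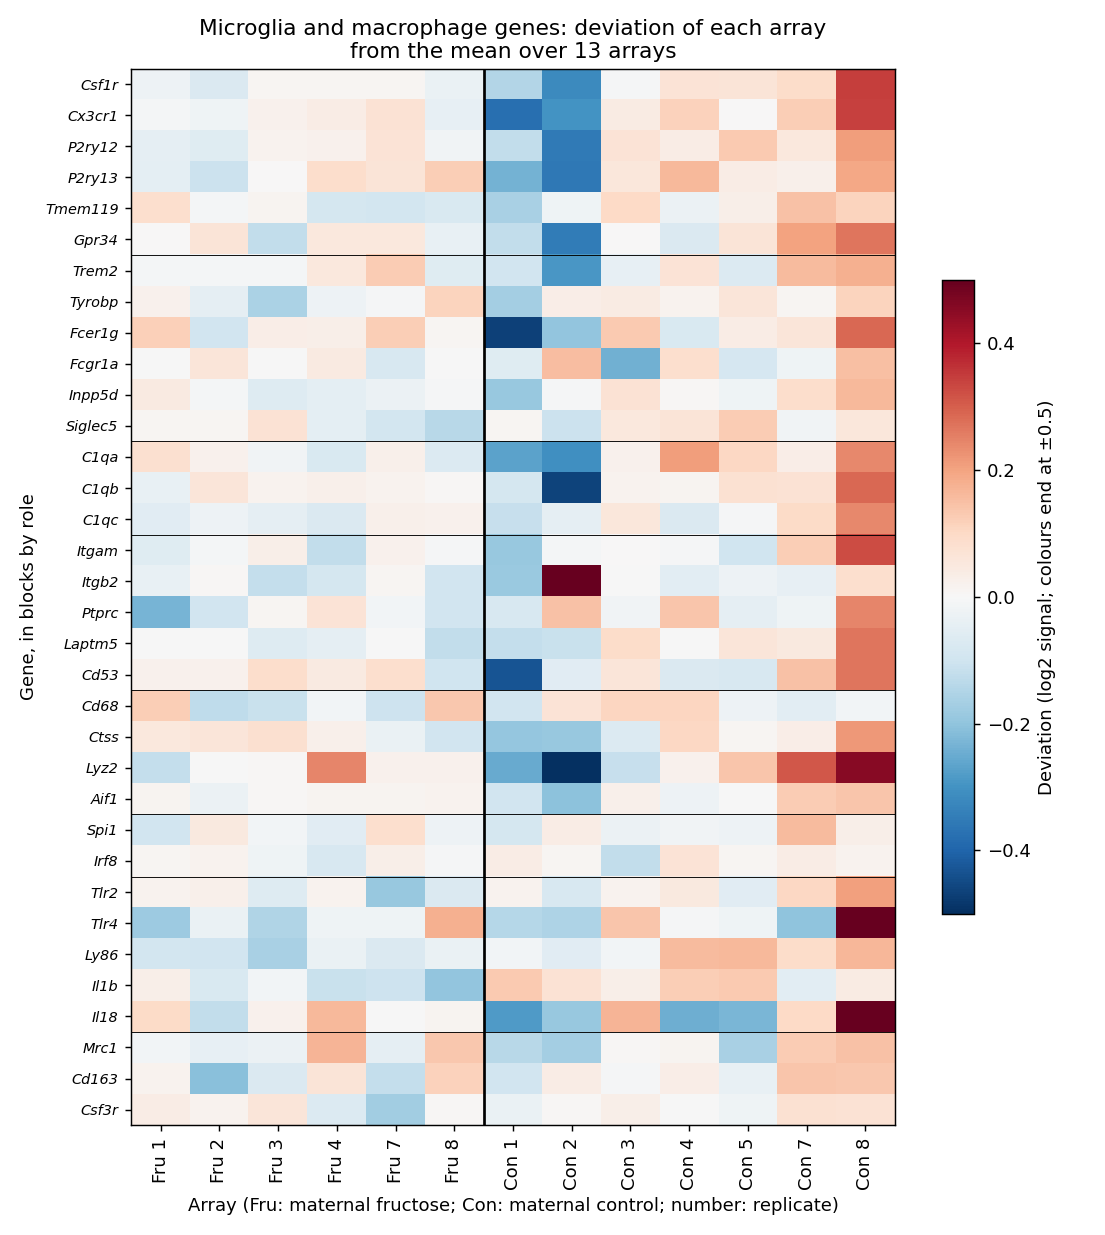
Deviation of each gene (rows, in blocks by role) on each array (columns, fructose left of control) from that gene's mean over 13 arrays, in log2 units, with colours that end at ±0.5. Control replicate 8 has the highest value for 23 of the 34 genes, and control replicates 1 and 2 the lowest for 11 and 10.

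Markers of other cell types varied over the same arrays, and the average of the astrocyte markers had the same 3 control arrays at its extremes. Astrocyte markers (9 genes measured) averaged -0.04 to 0.12 on fructose arrays, against -0.24 to 0.23 on control arrays, with the lowest values in control replicates 1 and 2 (-0.23 and -0.24) and the highest in control replicate 8 (0.23). In control replicate 8 Aqp4, Slc1a3, S100b, Aldh1l1 and Gja1 lay above all other arrays, while Gfap and Fgfr3 lay within their range. Slc1a2 and Slc7a10 were at 12.80 and 8.71 there, below the medians of the other arrays, 12.90 and 8.95. Meningeal markers were at 0.66 in control replicate 8, but fructose replicate 4 was higher still at 0.78, while the microglial genes averaged 0.01 there. The meningeal markers were also low in control replicates 1 and 2, at -0.33 and -0.44, and lowest in control replicate 5, at -0.47. Neuron markers spanned only -0.07 to 0.10 in fructose brains and -0.07 to 0.03 in control brains. Lymphocyte markers ran from -0.10 to 0.02 on fructose arrays and from -0.13 to 0.49 on control arrays, the 0.49 being control replicate 2. On that array Cd3e, Cd3g, Cd8a, Cd79b, Nkg7 and Klrb1 lay above all other arrays. Cd3d and Ms4a1 lay within the range of the other arrays, and Cd4 was lowest there, at 7.62 against 7.77 to 8.24 elsewhere. Monocyte markers ran from -0.11 to 0.05 on fructose arrays and from -0.10 to 0.07 on control arrays. The part of these lists in the microglial values was not tested.

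**Figure D2:**
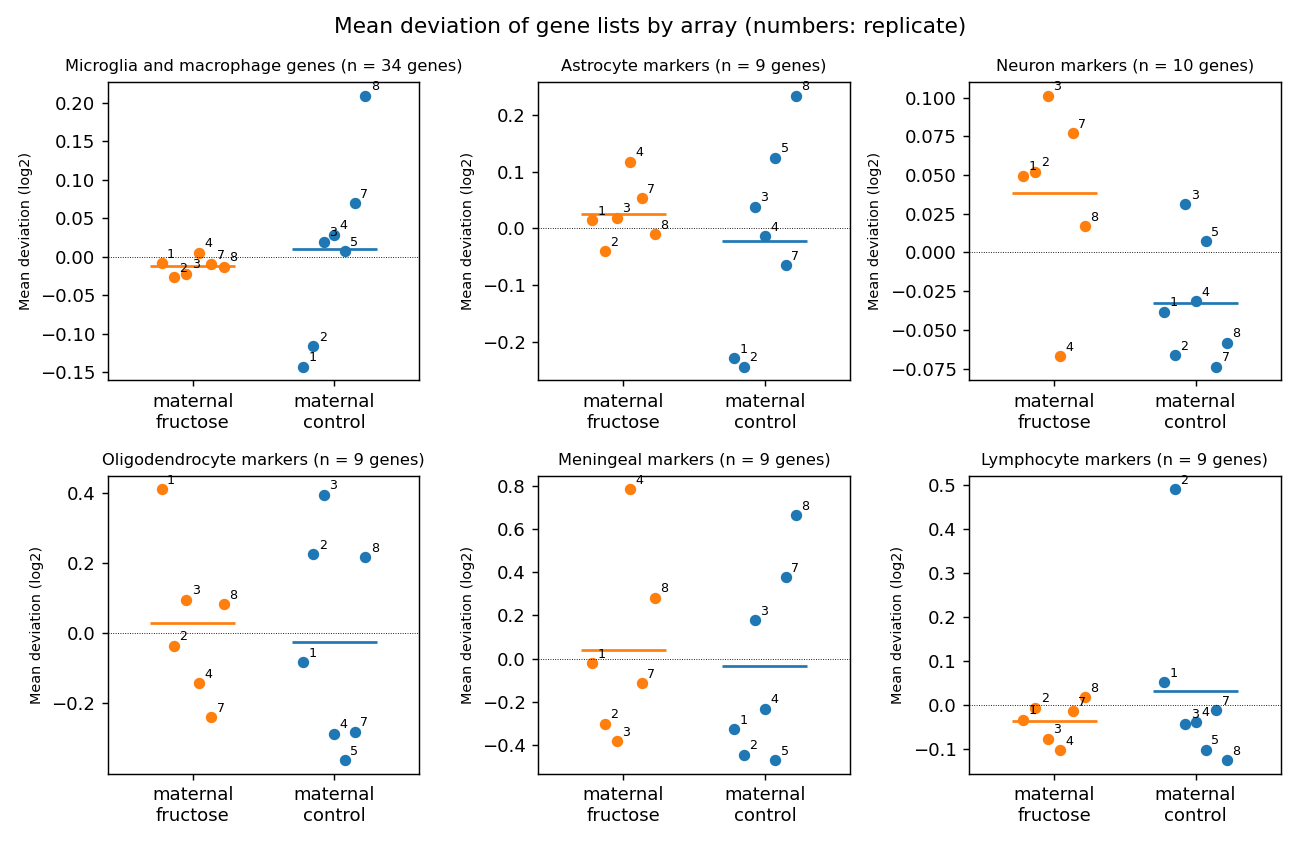
Mean deviation (log2, vertical axes, each with its own scale) of 6 gene lists on each array, with fructose left of control, replicate numbers beside the points and lines at group means. The fructose arrays of the microglial list lie between -0.03 and 0.01, inside the control range of -0.14 to 0.21.

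Since PU.1 is a known regulator of microglial genes, promoters were read for the purine-rich element it binds, whose core is GAGGAA. RefSeq promoter windows of the rat build GRCr8, from 250 bases before to 50 after the start, were found for 24 of the 34 genes. GAGGAA occurred on either strand in 16 of the 24 windows (66.7%), against 27.6% of all 33469 windows. The element AGGAAGT, which shares GGAA with it and can overlap it, occurred in 9 of 24 (37.5%), against 8.41% of all windows. The longer run GAGGAAGT, which contains both, was in 3 (12.5%), against 2.42%. The TATA box letters TATAAA were in 5 (20.8%), against 14.2%. A match is a run of letters and not a site of binding. The windows of 4 genes with wide control ranges and a match are shown first, then that of Irf8, which has a narrow range and no match. These 5 were picked after their values were seen, and a match did not go with range throughout. Il18, P2ry13 and C1qa had wide control ranges (0.79, 0.55 and 0.55) and neither element, while Csf3r, Cd68 and Siglec5 had narrow ones (0.11, 0.20 and 0.23) and at least 1 copy of GAGGAA. Capitals mark GAGGAA and AGGAAGT or their reverse complements TTCCTC and ACTTCCT.
Csf1r promoter, chr18:56834129-56834428, plus strand: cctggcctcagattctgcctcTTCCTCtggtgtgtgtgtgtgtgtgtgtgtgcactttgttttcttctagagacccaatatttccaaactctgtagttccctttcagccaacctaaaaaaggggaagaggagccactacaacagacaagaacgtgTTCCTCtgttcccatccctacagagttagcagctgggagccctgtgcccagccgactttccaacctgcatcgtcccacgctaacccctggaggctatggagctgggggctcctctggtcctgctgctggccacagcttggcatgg
C1qb promoter, chr5:154407778-154408077, minus strand: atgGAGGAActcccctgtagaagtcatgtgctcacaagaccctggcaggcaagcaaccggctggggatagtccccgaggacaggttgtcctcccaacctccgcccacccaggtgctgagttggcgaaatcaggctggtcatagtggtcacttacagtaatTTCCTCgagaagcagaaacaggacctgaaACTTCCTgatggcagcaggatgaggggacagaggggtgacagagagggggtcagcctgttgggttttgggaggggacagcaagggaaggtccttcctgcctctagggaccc
Cx3cr1 promoter, chr8:128677017-128677316, minus strand: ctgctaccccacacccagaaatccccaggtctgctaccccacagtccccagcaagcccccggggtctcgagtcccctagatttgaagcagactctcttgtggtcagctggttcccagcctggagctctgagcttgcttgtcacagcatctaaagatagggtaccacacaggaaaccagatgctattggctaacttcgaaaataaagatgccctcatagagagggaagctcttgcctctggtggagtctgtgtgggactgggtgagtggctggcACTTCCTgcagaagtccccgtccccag
Lyz2 promoter, chr7:54797962-54798261, minus strand: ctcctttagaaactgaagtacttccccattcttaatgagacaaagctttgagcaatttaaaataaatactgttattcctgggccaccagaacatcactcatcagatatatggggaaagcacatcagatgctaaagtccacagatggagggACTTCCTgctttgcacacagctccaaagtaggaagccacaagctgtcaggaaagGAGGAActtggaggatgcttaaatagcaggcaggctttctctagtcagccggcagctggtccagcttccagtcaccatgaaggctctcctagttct
Irf8 promoter, chr19:65699034-65699333, plus strand: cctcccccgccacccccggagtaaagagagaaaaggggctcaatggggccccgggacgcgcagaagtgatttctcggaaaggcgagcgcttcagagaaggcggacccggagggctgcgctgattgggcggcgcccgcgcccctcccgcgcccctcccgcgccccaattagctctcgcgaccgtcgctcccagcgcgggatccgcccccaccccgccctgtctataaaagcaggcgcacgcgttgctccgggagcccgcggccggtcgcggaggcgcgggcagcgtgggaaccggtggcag
Csf1r and C1qb each hold 2 copies of GAGGAA, and C1qb also holds 1 of AGGAAGT. Cx3cr1 has 1 copy of AGGAAGT, and Lyz2 has 1 of each element. Of the 34 genes, C1qb, C1qc and C1qa follow one another as neighbouring protein-coding genes in the RefSeq annotation, as do P2ry13 and P2ry12.

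Across all 13 arrays no microglial gene differed past the threshold between the maternal diets. In the limma fit 0 of 34 genes had an adjusted p under 0.05, as for 0% of the 15633 probe sets tested. At an unadjusted limma p under 0.05 there were 2 of 34 (2.23% of all probe sets). Both, Ly86 and Il1b, were lower in fructose brains, as were 0.896% of all probe sets at that p, and 0 were higher, against 1.33%. For 6 genes every fructose array lay below the control mean, against 5.01% of all probe sets, and for 0 did every fructose array lie below every control array, against 0.0192%. The differences ran from -0.15 to 0.07 with a median of -0.02, beside a median of 0.01 over all probe sets, and 21 of the 34 were below 0, against 45.9% of all. The 95% intervals lay within 1.2-fold for 29 of the 34 genes, against 84.6% of all probe sets, and within 1.3-fold for 34.

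The number of genes below 0 depended on which control arrays were kept. Without control replicates 1 and 2, the pair with the narrowest distributions, 32 of 34 differences were below 0, against 48.6% of all probe sets. Their median was -0.08, against 0.0022 over all. The pair were also the arrays on which the 34 genes averaged lowest, at -0.14 and -0.12, so leaving them out raises the control mean of these genes. The 34 genes were read on the same arrays, so the counts are not separate observations of the diet. The adjusted limma count was again 0 of 34 (0% of all), the smallest adjusted p was 0.953, and 6 genes had an unadjusted p under 0.05 (4.59% of all probe sets). These 6 (Csf1r, P2ry12, C1qa, Laptm5, Ly86 and Il1b) were lower, against 1.54% of all probe sets, and 0 were higher, against 3.05%. For 14 genes every fructose array lay below the mean of the remaining 5 controls, against 6.51% of all probe sets. The differences on 11 and on 13 arrays had opposite signs for 11 genes. Leaving out control replicate 8 as well brought the median to -0.05, with 30 of 34 below 0 (48.3% of all). Leaving out control replicate 8 alone from the 13 turned the median to 0.01, with 16 of 34 below 0 (46.6% of all). Without control replicate 1 alone 28 were below 0 (44.2% of all), and without control replicate 2 alone 29 (49.3% of all).

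**Figure D3:**
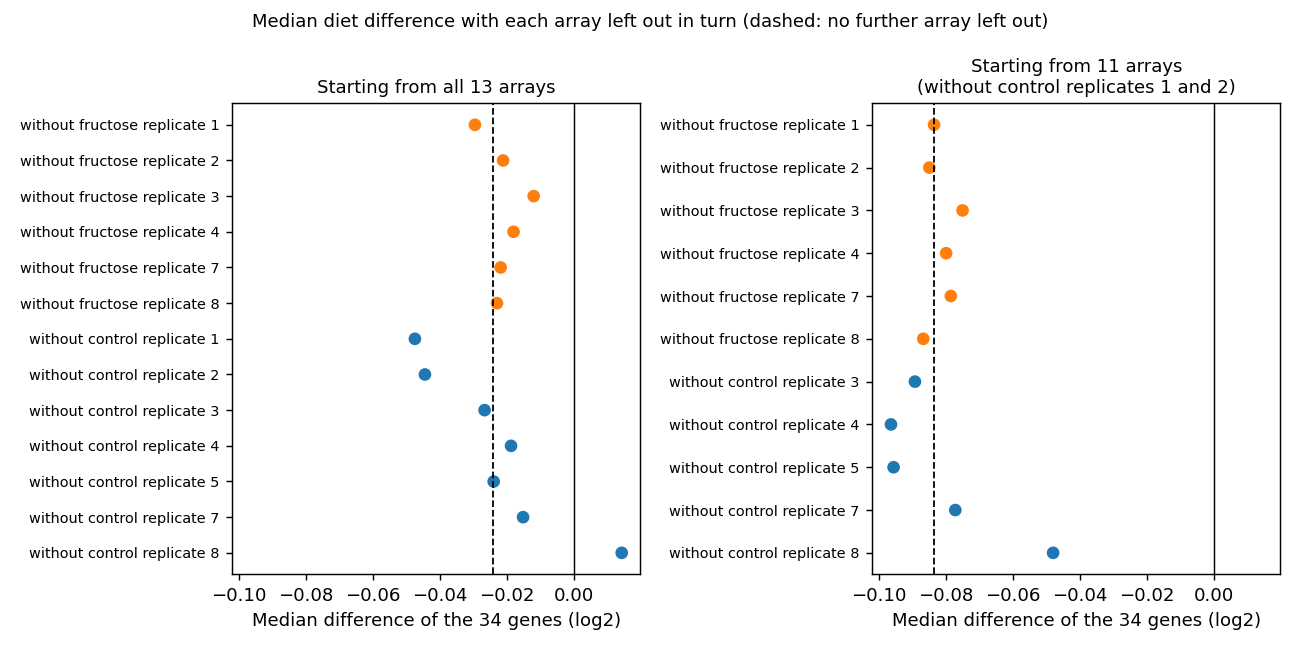
Median diet difference of the 34 genes (log2, horizontal axes) with each array left out in turn, starting from 13 arrays (left) and from 11 (right), with dashed lines where no further array is left out. Leaving out control replicate 8 moves the median to 0.01 on the left and to -0.05 on the right.

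**Figure D4:**
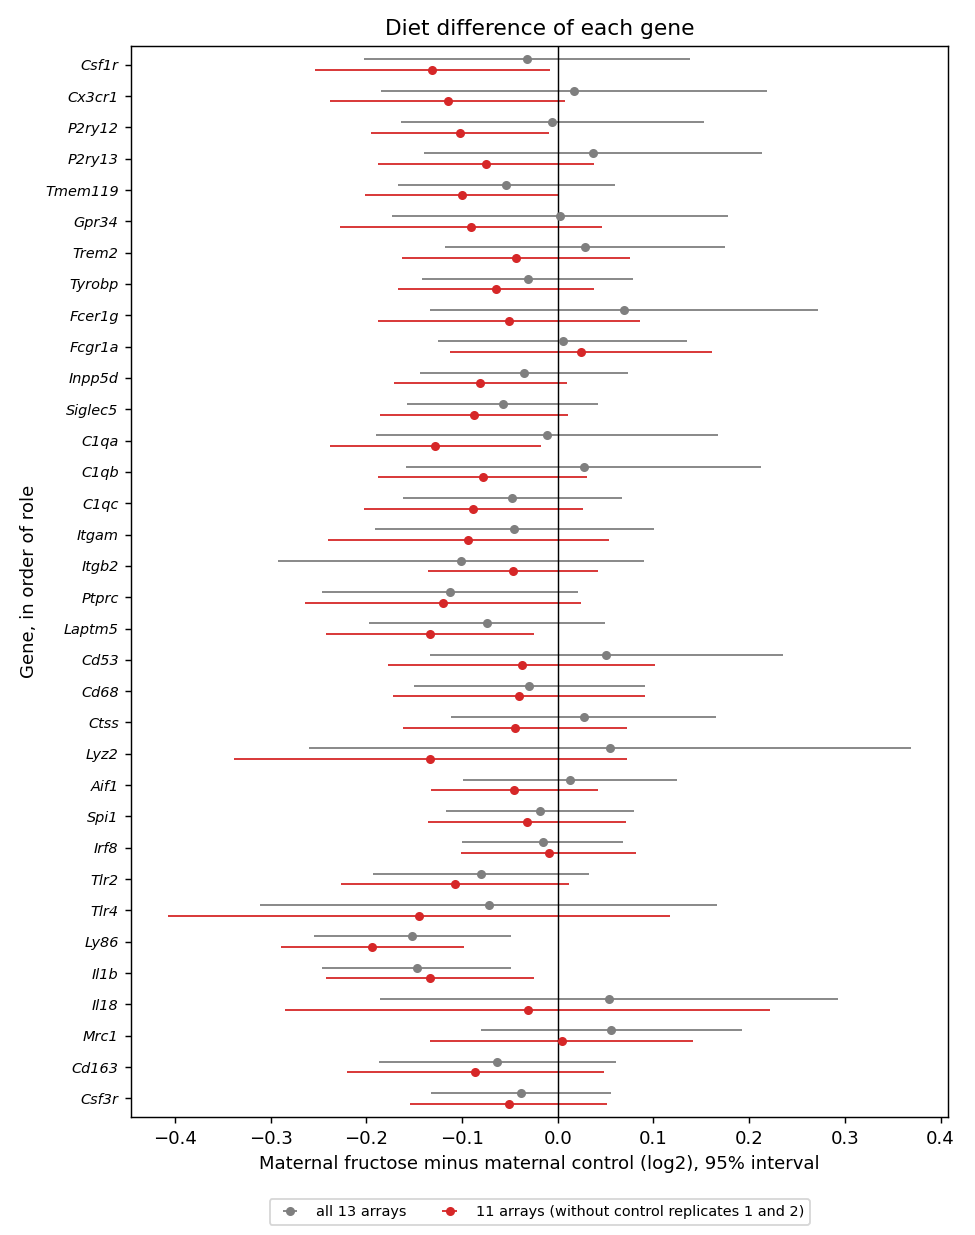
Maternal fructose minus maternal control (log2, horizontal axis) with 95% intervals for each gene, on 13 arrays (grey) and on 11 (red). The red point lies left of the grey one for each gene except Fcgr1a, Itgb2, Irf8 and Il1b, and Ly86 and Il1b have intervals below 0 in both.

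Ly86 and Il1b were the 2 genes whose 95% intervals lay below 0 in both sets of arrays, though neither passed the adjusted threshold. Ly86 encodes MD-1, the partner of the Toll-like receptor homologue CD180. It was at 7.30, 7.29, 7.23, 7.36, 7.32 and 7.35 on fructose replicates 1, 2, 3, 4, 7 and 8, against 7.37, 7.33, 7.37, 7.55, 7.55, 7.48 and 7.55 on control replicates 1, 2, 3, 4, 5, 7 and 8. Only control replicate 2 lay among the fructose values. The difference was -0.15 (95% interval -0.25 to -0.05, limma adjusted p = 0.9998). On 11 arrays it was -0.19 (interval -0.29 to -0.10, limma adjusted p = 0.953), and the groups no longer overlapped, which held for 0.0896% of all probe sets in this direction. With 1 more array left out it ranged from -0.23 to -0.18. Il1b, whose product is a fever-inducing cytokine that primed microglia release, lay between 6.71 and 6.94 (median 6.81) in fructose brains, against 6.85 to 7.04 (median 6.98) in control brains. Of the 7 controls, 6 lay above every fructose array, though control replicates 3 and 8 barely did, at 6.937 and 6.946 beside 6.936. Its difference was -0.15 on 13 arrays and -0.13 on 11 (limma adjusted p = 0.9998 and 0.953). Its probe set was among the 30% dimmest of all, as were those of Tlr2, Tlr4, Il18, Ptprc, Cd68 and Fcgr1a, and how far such signals stand above background is unknown.

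Of the 34 genes, the other 3 of innate sensing, Tlr4, Tlr2 and Il18, had intervals that included 0 in both sets of arrays. Tlr4, the receptor for bacterial lipopolysaccharide, lay between 6.93 and 7.29 (median 7.08) in fructose brains and between 6.91 and 7.73 (median 7.09) in control brains. The 7.73 was control replicate 8, with the next control at 7.25, and its difference of -0.07 became 0.03 without that array. Tlr2, which senses bacterial lipoproteins, was at 6.14 to 6.35 in fructose brains and at 6.25 to 6.53 in control brains, a difference of -0.08 (interval -0.19 to 0.03) and of -0.11 on 11 arrays. Il18, a cytokine activated by caspase-1, spanned 6.76 to 7.05 (median 6.90) in fructose brains and 6.60 to 7.39 (median 6.70) in control brains. Here 4 controls lay below every fructose array and 2 above, and the differences were 0.05 and -0.03 on 13 and 11 arrays.

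Among the surface receptors that mark resting microglia, 3 of 6 differences were below 0 on 13 arrays and 6 of 6 on 11. Csf1r, the receptor for the survival factors CSF1 and IL-34, lay between 9.61 and 9.69 (median 9.68) in fructose brains, against 9.36 to 10.03 (median 9.75) in control brains. Of the controls, 4 lay above every fructose array and 2, replicates 1 and 2, below. The difference was -0.03 (interval -0.20 to 0.14) on 13 arrays and -0.13 (interval -0.25 to -0.01, limma adjusted p = 0.953) on 11, and -0.07 with control replicate 8 also left out. Cx3cr1, the fractalkine receptor, lay between 9.97 and 10.08 (median 10.01) in fructose brains and between 9.63 and 10.35 (median 10.05) in control brains. Its differences of 0.02 and -0.12 on 13 and 11 arrays had opposite signs, with an interval from -0.24 to 0.01 for the second. P2ry12, the ADP receptor that steers microglial processes toward injury, was at 9.13 to 9.26 (median 9.19) in fructose brains and at 8.83 to 9.39 (median 9.24) in control brains. Its difference was -0.01 on 13 arrays and -0.10 on 11 (interval -0.19 to -0.01, limma adjusted p = 0.953). P2ry13, a related ADP receptor, and Gpr34, a receptor for lysophosphatidylserine, differed by 0.04 and 0.0028 on 13 arrays and by -0.07 and -0.09 on 11. For both, control replicate 2 was lowest and control replicate 8 highest. Tmem119, a membrane protein that separates microglia from blood-derived macrophages, departed from this: control replicate 2 was at 8.37, inside the fructose range of 8.30 to 8.48, and control replicate 7 was highest at 8.54. It differed by -0.05 (interval -0.17 to 0.06) and by -0.10 on 11 arrays.

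The C1q chains, which assemble into the recognition protein of the classical complement pathway, did not follow the arrays equally. C1qa lay between 9.28 and 9.43 (median 9.35) in fructose brains and between 9.05 and 9.59 (median 9.39) in control brains, and C1qb between 8.67 and 8.77 in fructose brains and between 8.25 and 8.996 in control brains. C1qc had a narrower control range, 8.28 to 8.63, beside 8.32 to 8.42 in fructose brains. In control replicate 2, C1qb was at 8.25, far below its fructose range, while C1qc at 8.35 was inside its own. The differences were -0.01, 0.03 and -0.05 for C1qa, C1qb and C1qc on 13 arrays and -0.13, -0.08 and -0.09 on 11. The interval of C1qa on 11 arrays was -0.24 to -0.02 (limma adjusted p = 0.953).

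TREM2, its adapter and other immune receptor genes differed by at most 0.07 on all arrays. Trem2, a lipid-sensing receptor, was at 8.01 to 8.20 (median 8.06) in fructose brains and at 7.78 to 8.25 (median 8.03) in control brains, with differences of 0.03 and -0.04 on 13 and 11 arrays. Tyrobp, the adapter that couples TREM2 to the kinase SYK, was at 8.47 to 8.73 in fructose brains and at 8.45 to 8.73 in control brains, a difference of -0.03 (interval -0.14 to 0.08). Control replicate 1 set the lower end at 8.45, with the other controls at 8.63 or more. Fcer1g, the adapter shared by Fc receptors, ran from 9.18 to 9.40 in fructose brains and from 8.81 to 9.56 in control brains, and differed by 0.07 and -0.05. Fcgr1a, the high-affinity IgG receptor, was highest in control replicates 2 and 8, at 7.12 in both, and its differences were 0.0050 and 0.02. Inpp5d, which encodes the inhibitory lipid phosphatase SHIP1, and Siglec5, a sialic-acid-binding receptor, differed by -0.04 and -0.06 on 13 arrays and by -0.08 and -0.09 on 11.

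Among integrins and membrane proteins shared with other leukocytes, Itgb2 behaved unlike its partner Itgam. The 2 encode CD18 and CD11b, which pair as complement receptor 3. Itgam lay between 7.09 and 7.24 in fructose brains and between 7.02 and 7.54 in control brains, with control replicate 2 at 7.20. Itgb2 lay between 7.55 and 7.68 in fructose brains and between 7.48 and 8.22 in control brains. The 8.22 was control replicate 2, the array with high signals of cytotoxic lymphocyte genes, and the next control was at 7.75. CD18 is known to be carried by lymphocytes too, in the integrin LFA-1, and the part of those cells in the value was not tested. The difference of Itgb2 was -0.10 on 13 arrays and -0.05 (interval -0.14 to 0.04) on 11. Ptprc, the pan-leukocyte phosphatase CD45, was at 6.59 to 6.89 in fructose brains and at 6.74 to 7.07 in control brains, a difference of -0.11 (interval -0.25 to 0.02). Laptm5, a lysosomal protein of blood-lineage cells, was at 8.15 to 8.28 (median 8.25) in fructose brains and at 8.16 to 8.54 (median 8.33) in control brains. It differed by -0.07 on 13 arrays and by -0.13 on 11 (interval -0.24 to -0.02, limma adjusted p = 0.953). Cd53, a tetraspanin, differed by 0.05 and -0.04, and by 0.01 on 11 arrays with control replicate 8 also left out.

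Lysosomal and phagocyte genes held the widest and some of the narrowest ranges. Lyz2, the lysozyme gene of myeloid cells, had a control range of 8.47 (control replicate 2) to 9.67 (control replicate 8), beside 9.09 to 9.45 in fructose brains, with medians of 9.22 in fructose brains and 9.23 in control brains. Its difference was 0.05 (interval -0.26 to 0.37) on 13 arrays and -0.13 (interval -0.34 to 0.07) on 11. Aif1, which encodes the microglial marker IBA1, was nearly constant in fructose brains, at 7.996 to 8.04 (SD 0.018), against 7.82 to 8.16 (SD 0.12) in control brains, and differed by 0.01 and -0.05. Ctss, a lysosomal protease, was at 11.21 to 11.39 in fructose brains and at 11.11 to 11.52 in control brains, with differences of 0.03 and -0.04. Cd68, a lysosomal glycoprotein, was at 6.35 to 6.61 in fructose brains and at 6.38 to 6.58 in control brains, with the highest and the lowest array both in the fructose group and a difference of -0.03.

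The transcription factor genes had control SDs of 0.077 for Spi1 and 0.062 for Irf8, below the median of 0.14 over the 34 genes, and fructose SDs of 0.066 and 0.040, beside a median of 0.068. Spi1, which encodes PU.1, was at 7.33 to 7.51 in fructose brains and at 7.34 to 7.59 in control brains, and Irf8, its partner in microglial development, at 7.03 to 7.14 in fructose brains and at 6.99 to 7.18 in control brains. Neither was highest in control replicate 8. Their differences were -0.02 and -0.02 on 13 arrays and -0.03 and -0.01 on 11, with intervals on 11 arrays of -0.14 to 0.07 for Spi1 and -0.10 to 0.08 for Irf8.

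Genes of border macrophages and granulocytes differed by at most 0.06 in size on 13 arrays. Mrc1, the mannose receptor of perivascular macrophages, was at 7.17 to 7.38 in fructose brains and at 7.04 to 7.36 in control brains, a difference of 0.06 (interval -0.08 to 0.19) and of 0.0040 on 11 arrays. Cd163, their haemoglobin scavenger receptor, was at 6.99 to 7.31 in fructose brains and at 7.10 to 7.34 in control brains, a difference of -0.06. Csf3r, the receptor for granulocyte colony-stimulating factor, was at 7.17 to 7.41 in fructose brains and at 7.31 to 7.43 in control brains, a difference of -0.04. For Cd163 and Csf3r the fructose arrays were the more variable, with SDs of 0.12 and 0.087 in fructose brains against 0.086 and 0.044 in control brains. In contrast, 28 of the 34 genes had the larger SD among control arrays, against 70.8% of all probe sets, and 27 did on 11 arrays, against 58.9%.

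Related pathways outside the 34 genes gave 0 calls at an adjusted limma p under 0.05 in either set of arrays. The genes named for each list, here and in the next paragraph, had its smallest unadjusted limma p on 13 arrays. They therefore do not stand for the rest of their list. Among other microglia-enriched genes, 3 of 9 measured were lower in fructose brains on 13 arrays (median 0.04) and 8 of 9 on 11 (median -0.04). In this group Mertk, a receptor for the uptake of dying cells that astrocytes also express, was at 9.11 to 9.34 in fructose brains and at 8.48 to 9.21 in control brains, a difference of 0.24 (interval 0.02 to 0.45) on 13 arrays and of 0.09 on 11, and Cyth4, an activator of ARF proteins, differed by -0.04. Kinases and effectors downstream of ITAM adapters were lower for 10 of 12 on 13 arrays (median -0.05) and 11 of 12 on 11 (median -0.05), with Dock2 at -0.10 and Btk, a kinase shared with B cells, at -0.08. Genes known to rise in reactive microglia were lower for 7 of 16 (median 0.0066) and 13 of 16 (median -0.02). Lgals3, which encodes galectin-3, spanned 6.39 to 7.63 in fructose brains and 6.55 to 8.35 in control brains and differed by -0.38 (interval -0.94 to 0.19), while the protease gene Ctsb differed by 0.08. Complement genes other than C1q were lower for 4 of 7 (median -0.01) and 6 of 7 (median -0.09), with C1s at -0.14 and Cd55, an inhibitor of complement on cell surfaces, at 0.23.

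In the Toll-like receptor and interleukin 1 pathway 11 of 22 were lower on 13 arrays and 12 of 22 on 11. Irak4, the kinase that relays both receptor families, was at 6.67 to 6.86 in fructose brains and at 6.78 to 7.15 in control brains, a difference of -0.14 and of -0.15 on 11 arrays (intervals -0.28 to -0.0021 on 13 and -0.30 to -0.0050 on 11, limma adjusted p = 0.9998 and 0.953), and Rela, a subunit of NF-kB, differed by 0.08. Ligands and inhibitory partners of microglial receptors were lower for 4 of 12 (median 0.035) on 13 arrays and 5 of 12 on 11, with Smad3 at 0.12 and Csf2rb at 0.06. Myeloid transcription factors other than those above were lower for 3 of 6 in both sets, with Cebpa at -0.05 and Irf5 at 0.03. Border macrophage genes were lower for 5 of 8 in both sets, with Ms4a7 at -0.14 and Cd36 at -0.11. Other Fc receptors were lower for 3 of 4 in both sets, with Fcer1a at -0.07 and Fcgr3a at -0.03, and subunits of the phagocyte oxidase for 2 of 4 and 1 of 4, with Cyba at -0.05 and Ncf4 at -0.03.

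Of the markers of other cells that brain tissue can hold, neutrophil markers were lower for 7 of 10 on 13 arrays (median -0.05) and 3 of 10 on 11 (median 0.01), and lymphocyte markers for 7 of 9 (median -0.02) and 3 of 9 (median 0.02). Monocyte markers were lower for 3 of 4 and 2 of 4, and red cell markers for 1 of 5 and 3 of 5. Astrocyte markers were lower for 3 of 9 on 13 arrays and 5 of 9 on 11, meningeal markers for 2 of 9 and 7 of 9, and endothelial markers for 2 of 9 and 3 of 9. Neuron markers were lower for 0 of 10 and 2 of 10, oligodendrocyte markers for 2 of 9 and 1 of 9, and choroid plexus markers for 6 of 9 and 4 of 9. For the 34 microglial genes the same counts were 21 and 32.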

How the data were processed

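The authors deposited 1 table of log2 signals for 29214 probe sets on 13 arrays. Per the labels, labelled cRNA was made from 100 ng of RNA with Ambion and Affymetrix whole transcript kits. RMA and R 3.0.1 are named in the submitters' processing notes, and a genome build is not given in the sources used here. Those deposited log2 values were used as they stood, without a filter. Genes came from GEO's platform annotation: 15310 probe sets had 1 gene symbol, 323 several and 13581 none, and only those with 1 were used for names. The symbols of 34 of 34 genes matched RefSeq by Entrez identifier.

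Linear models of limma 3.58.1 (R 4.3.3, moderated by eBayes) were fitted to the 15633 probe sets that carry a symbol, fructose minus control, with Benjamini-Hochberg adjustment over all of them and a threshold of 0.05, on 13 arrays and on 11, without control replicates 1 and 2. Group medians and ranges are over arrays. Genes named were the 34 and up to 2 of each of 10 related lists, those with the smallest unadjusted p; 10 lists of cell markers are given as counts. The members and lists, and the pair of arrays left out, were chosen with earlier results of these data known. Genes of control replicates 2 and 8 were taken by their gap to the next array. The test was checked on simulated data. Alternatives were other normalizations, array weights, another variance model, a filter on the 30% dimmest probe sets, the replicate number as a block and leaving out each array. The block fit used only replicate numbers found in both groups, so control replicate 5 was not in it. From 11 arrays, fructose replicates 1 and 2 were not in it either. No detection calls were used, so signal over background is not known, and 13 arrays set the precision. The windows printed came from RefSeq (GRCr8).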

Additional observations from a re-analysis of the deposited data

Results flagged for a closer look

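In 110 groups of 6 or 7 arrays (the 34 genes, 20 genes of related lists and the mean of the 34, in each group), 12 held an array whose gap to its nearest neighbour was large for the range of the group. Chance gives about 1 in 20 groups. Among microglial genes these were Cd53 in fructose replicate 8 (8.25, with the next at 8.37), Aif1 in fructose replicate 2 (7.996, next 8.031, a gap of 0.03), Tyrobp in control replicate 1 (8.45, next 8.63), Itgb2 in control replicate 2 (8.22, next 7.75), Irf8 in control replicate 3 (6.99, next 7.12) and Tlr4 in control replicate 8 (7.73, next 7.25). Among genes of related lists they were Cebpa in fructose replicate 4 (7.76, next 7.92), Lgals3 in fructose replicate 8 (7.63, next 6.71), Cd55 in fructose replicate 4 (8.14, next 7.30), Ncf4 in fructose replicate 8 (7.08, next 6.80), Irf5 in control replicate 8 (7.94, next 7.83) and Ms4a7 in control replicate 1 (6.90, next 6.65).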

How the results depend on the processing

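At an adjusted limma p under 0.05, 0 probe sets passed in every alternative run, from 13 arrays and from 11, and the lowest adjusted p of any of the 54 named genes was 0.532. On 13 arrays 21 of the 34 genes were lower in fructose brains (45.9% of all probe sets) and 32 were without control replicates 1 and 2 (48.6%). With 1 array left out the count ran from 16 to 29 from 13 arrays, where 44.2% to 49.3% of all probe sets were lower. From 11 arrays it ran from 30 to 34, where 46.1% to 52.9% of all were lower. From 13 arrays, these log2 differences changed sign. With array weights they were Aif1 -0.0043, Cx3cr1 -0.041, Lyz2 -0.020, P2ry13 -0.055, Trem2 -0.013. With cyclic loess they were Cx3cr1 -0.0032, Gpr34 -0.0016. With renewed quantile normalization they were Cx3cr1 -0.0083. With the replicate block, which gave the same differences as leaving out control replicate 5, they were C1qa 0.0049, Fcgr1a -0.0088, P2ry12 0.016. Without control replicates 1 and 2 they were Aif1 -0.045, C1qb -0.079, Cd53 -0.038, Ctss -0.045, Cx3cr1 -0.12, Cyba 0.017, Fcer1g -0.051, Gpr34 -0.091, Il18 -0.032, Lyz2 -0.13, Ncf4 0.0031, P2ry13 -0.075, Trem2 -0.043. Leaving out 1 array turned the sign of Csf1r (-0.088 to 0.023), Cx3cr1 (-0.044 to 0.075), P2ry12 (-0.065 to 0.029), P2ry13 (-0.019 to 0.072), Gpr34 (-0.055 to 0.048), Trem2 (-0.018 to 0.060), Fcer1g (-0.0036 to 0.12), Fcgr1a (-0.035 to 0.031), C1qa (-0.063 to 0.028), C1qb (-0.048 to 0.077), Itgam (-0.080 to 0.0056), Cd53 (-0.017 to 0.099), Ctss (-0.0030 to 0.065), Lyz2 (-0.064 to 0.13), Aif1 (-0.021 to 0.036), Spi1 (-0.037 to 0.0061), Tlr4 (-0.12 to 0.026), Ncf4 (-0.088 to 0.0031). From 11 arrays, these log2 differences changed sign. With array weights they were Mrc1 -0.024, Ncf4 -0.027. With cyclic loess they were Fcgr1a -0.0041, Mrc1 -0.020, Ncf4 -0.028. With renewed quantile normalization they were Mrc1 -0.014, Ncf4 -0.023. With the replicate block, which here left out control replicate 5 and fructose replicates 1 and 2, they were Fcer1a 0.0028, Fcgr1a -0.0043, Mrc1 -0.014. With arrays centred on medians they were Fcer1a 0.010, Irf8 0.0031. Leaving out 1 array turned the sign of Fcgr1a (-0.030 to 0.068), Cd53 (-0.073 to 0.013), Spi1 (-0.051 to 0.0011), Irf8 (-0.041 to 0.0076), Il18 (-0.11 to 0.080), Mrc1 (-0.043 to 0.034), Cd55 (-0.011 to 0.30), Fcer1a (-0.032 to 0.032), Cyba (-0.00044 to 0.029), Ncf4 (-0.053 to 0.039). The cause was not tested. Same-numbered arrays of the 2 groups did not deviate together (correlations -0.34 to 0.19, and 0 of 6 matched its own number best), so the numbers were not taken as pairs. The replicate block kept only numbers found in both groups and so left out control replicate 5. From 13 arrays its median of the 34 genes was -0.02 with 20 lower (44.8% of all probe sets), the same as without that array alone. With the block 0 probe sets passed. Each of the 34 genes had 1 probe set, so another probe set could not be tried. Without the 30% dimmest probe sets 27 genes were left, 16 of them lower on 13 arrays (41.0% of all probe sets) and 26 on 11 (54.0% of all). The number of arrays, and dim signals for 7 genes, limit what can be seen.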

Other observations

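Genes over 1 log2 unit above the next array numbered 8 in control replicate 2 and 7 in control replicate 8. In control replicate 2 they included Klrc1, a receptor of natural killer cells, at 7.08 (4.92 to 5.31 on the other arrays), Gzmk, a granzyme, at 8.17 (6.28 to 6.62) and Ccl5, a chemokine of T cells and macrophages, at 8.67 (6.94 to 7.22). In control replicate 8 they included Gpr101, an orphan receptor gene of the hypothalamus, at 8.01 (5.99 to 6.64), Calcr, the calcitonin receptor, at 7.83 (5.86 to 6.55) and Slc17a6, the vesicular glutamate transporter of subcortical neurons, at 9.15 (6.07 to 8.04). Cxcl13, a B cell chemokine, was also highest there, at 7.82 (5.99 to 6.85).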
